A study of Mus musculus with 6 samples.

Results

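JARID2 contact sites on 6 mitochondrial messenger RNAs were read from PAR-CLIP of E14 cells, a mouse embryonic stem cell line. The 6 genes are mt-Co1, mt-Co2, mt-Co3, mt-Atp8, mt-Atp6 and mt-Cytb, of 37 genes annotated on the mitochondrial chromosome. They were chosen by name and position, and a site belonged to a gene when it overlapped it on the plus strand, the strand that reads as these messenger RNAs. Cells given 2 µM retinoic acid for 24 h form the first group, and cells labelled control, called untreated here, form the second, each with 3 libraries. Both groups took up 500 µM 4-thiouridine for 2 h, were irradiated at 312 nm with 400 mJ/cm2 and gave whole-cell extracts for immunoprecipitation with an in-house JARID2 antibody, per the labels. The growth medium held serum and LIF, a factor that keeps stem cells undifferentiated. The authors deposited 1 list of contact sites per group that pools its 3 libraries, so no value per library and no spread between replicates can be given. Of the sites, 101 of 5348 in the retinoic acid list and 115 of 23380 in the untreated list overlapped the 6 genes.

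JARID2 is a partner of the Polycomb complex PRC2, which marks histones in the nucleus. In PAR-CLIP, 4-thiouridine taken up into RNA crosslinks to a bound protein under ultraviolet light, so that a contact site lies at a U. Mitochondrial DNA is read from both strands as long precursors, and transfer RNAs between the coding genes mark where most of the messenger RNAs are cut out. mt-Co1, mt-Co2 and mt-Co3 encode the catalytic core of cytochrome c oxidase, mt-Atp8 and mt-Atp6 encode membrane subunits of ATP synthase, and mt-Cytb encodes the cytochrome b of complex III. All libraries came from immunoprecipitation with the JARID2 antibody, with no input and no control antibody among them. Contact of JARID2 and background from the extracts thus cannot be told apart, and contact site is used here as the name of a deposited site. The lists hold contact sites and no RNA levels. Contact per RNA molecule, RNA per cell and the number of cells cannot be told apart in them, and the identity of the cells could not be checked against marker genes.

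For each gene, the locus with the highest score summed over both lists is printed here, among loci that both lists held and counting sites inside that gene alone. Presence in both lists was thus a condition of the choice. By this sum, these loci hold the highest-scored recurring contact sites of each gene. Letters are DNA letters of the RNA strand, 5′ to 3′, so T stands for U. Capitals mark the bases that lay inside a site of both lists.
mt-Co1: aACTGACTTGTCCCAC
mt-Co2: aTCTGAAGAcgtcctcca
mt-Atp8: aACATTCCCactggca
mt-Atp6: tCTCCATTCTTTCCAACACtga
mt-Co3: ttcTTTGCAgga
mt-Cytb: ttGCTTATTCCTTCAt
In mm9 numbering on the plus strand, they lie at chrM:5565-5580 in mt-Co1, chrM:7477-7494 in mt-Co2, chrM:7858-7873 in mt-Atp8, chrM:8049-8070 in mt-Atp6, chrM:8883-8894 in mt-Co3 and chrM:14420-14435 in mt-Cytb. All 6 lie inside the coding part. Counted from the first base of each gene, they start at base 238 of mt-Co1, 465 of mt-Co2, 93 of mt-Atp8, 123 of mt-Atp6, 277 of mt-Co3 and 276 of mt-Cytb. The mt-Cytb stretch of 16 bases holds 9 T, and the mt-Atp6 stretch of 22 bases holds 8. The mt-Co1 stretch, with the highest score of all, holds 4 T in 16 bases.

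All 6 genes held sites in both lists. Together they had 20.2 sites per kb after retinoic acid (95% exact Poisson interval 16.5 to 24.6) and 23.0 untreated (19.0 to 27.6). These and the other intervals cover counting error only. The number of sites on the 6 genes after retinoic acid was 0.878 times the untreated number, while the whole retinoic acid list was 0.229 times as long as the untreated list. In the retinoic acid list the order by density was mt-Co3 (24.2 per kb), mt-Co1 (22.7), mt-Atp6 (19.1), mt-Co2 (17.5), mt-Cytb (17.5) and mt-Atp8 (9.80). In the untreated list it was mt-Co1 (28.5), mt-Atp8 (24.5), mt-Cytb (22.7), mt-Co3 (21.7), mt-Atp6 (19.1) and mt-Co2 (17.5). Neighbours in either order had overlapping intervals, and so did both lists for each gene.

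**Figure D1:**
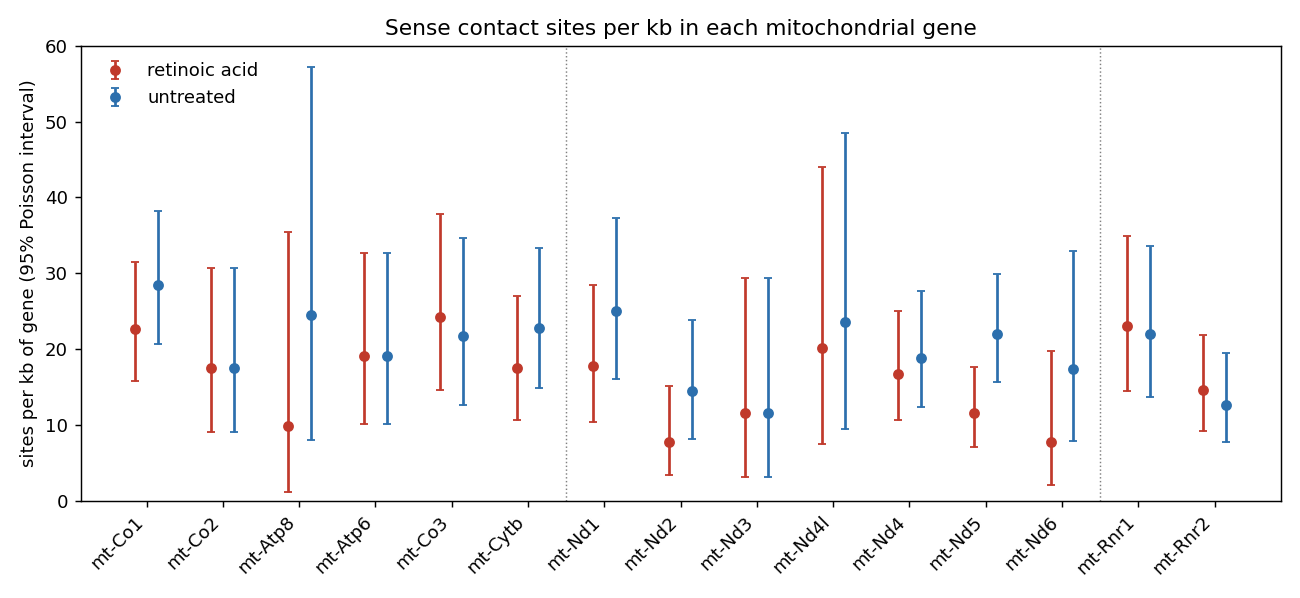
Sites per kb of gene in the retinoic acid list (red, left of each pair) and the untreated list (blue), with exact 95% Poisson intervals, for the 6 genes, the 7 complex I genes and the 2 ribosomal RNA genes. Intervals of both lists overlap for every gene shown, and mt-Co1 has the highest untreated density, 28.5 per kb.

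The share of mitochondrial sites held by each gene was compared between the lists by a two-sided Fisher exact test with Benjamini-Hochberg adjustment over all 13 mitochondrial genes with at least 10 sites. It compares the 2 pooled lists and not the conditions, and sites of 1 transcript are not independent. None of the 13 genes passed the threshold of 0.05 (0% called), 0 had an unadjusted p under 0.05, and the lowest Fisher exact adjusted p was 0.830. Among the 5 members tested, the odds ratio of retinoic acid over untreated ran from 1.12 for mt-Cytb (interval 0.577 to 2.13) to 1.65 for mt-Co3 (0.797 to 3.46). With 2 sites after retinoic acid and 5 untreated, mt-Atp8 had too few for this test, and with a minimum of 5 sites its odds ratio was 0.573 (0.0542 to 3.53). Together the 6 genes held 36.7% of the mitochondrial sites after retinoic acid (101 of 275, exact binomial interval 31.0 to 42.7) and 29.0% untreated (115 of 396, 24.6 to 33.8). Among plus-strand sites alone the shares were 43.0% and 40.2%.

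Set against the whole list instead of the mitochondrial sites, all 5 members tested held a larger share after retinoic acid, with log2 odds ratios from 1.75 for mt-Cytb to 2.29 for mt-Co3 (Fisher exact adjusted p from 8.02e-04 for mt-Co2 down to 1.96e-06 for mt-Co1). The share was higher after retinoic acid for all 13 genes and passed the test for 11 of them (84.6% called), so the members' result is close to that of mitochondrial genes at large. An untreated list limited to its 5348 highest-scored sites, as many as the retinoic acid list holds, gave no such calls. The 6 genes then had 101 sites after retinoic acid and 113 untreated, and 0 of 13 genes passed the Fisher exact test (0% called, lowest adjusted p 0.807, 0 with unadjusted p under 0.05). The lowest untreated score kept was 32, while the retinoic acid list was left uncut, with scores from 1 and a median of 23. The lists were thus not held to the same score minimum. Cutting the untreated list alone raises the members' untreated share, since 113 of their 115 sites were kept.

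mt-Co1, the subunit that holds the oxygen-reducing centre of the oxidase, had the most sites and the highest scores of the 6 genes. It spans 5328 to 6872 on the plus strand (ENSMUSG00000064351.1). It held 35 sites after retinoic acid, scored 36 to 2842 with a median of 281, and 44 untreated sites, scored 60 to 4113 with a median of 361.5. The score is a whole number that the authors gave each site, and the sources used here do not define it. mt-Co1 carried 57.2% of the summed score of the 6 genes after retinoic acid and 56.1% untreated, so the dominance of this gene was alike in both lists. Its summed score was 14924 after retinoic acid and 25310 untreated.

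The highest-scored site of mt-Co1 in each list lay at the same place. It scored 2842 after retinoic acid, at 5565 to 5580, and 4113 untreated, at 5566 to 5580. The sites share 15 bases, and their scores ranked 220 of 5348 after retinoic acid and 252 of 23380 untreated. The next site by score after retinoic acid was 1276 at 6447 to 6474, where the untreated list had 1615 at 6452 to 6474. Untreated sites of 1062 at 5677 to 5715 and 1078 at 5803 to 5804 overlapped no site of the retinoic acid list. That list did have sites close by, of 387 at 5671 to 5676, directly before the first, and of 190 at 5813 to 5831. The site of 691 at 6493 to 6503 was the highest-scored site of the 6 genes after retinoic acid that met no untreated site.

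At the 3′ end of mt-Co1 the sites ran across the stop codon and past the annotated end. In the untreated list 1 site, scored 2159, covered 6828 to 6875. In the retinoic acid list 3 sites lay there, 442 at 6823 to 6837, 281 at 6851 to 6860 and 1022 at 6863 to 6877. The last site passed the end of the gene by 5 bases after retinoic acid and by 3 untreated. Beyond it, on sequence antisense to the transfer RNA gene mt-Ts1, the untreated list had another site, scored 782, at 6894 to 6902. The part of this locus inside the gene, chrM:6823-6872, is shown because it was the only place where a called stretch left a member at its 3′ end in both lists.
mt-Co1: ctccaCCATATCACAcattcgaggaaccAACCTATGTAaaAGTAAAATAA
Capitals again mark bases inside a site of both lists, 33 of 50. This locus was chosen after its values were seen.

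**Figure D2:**
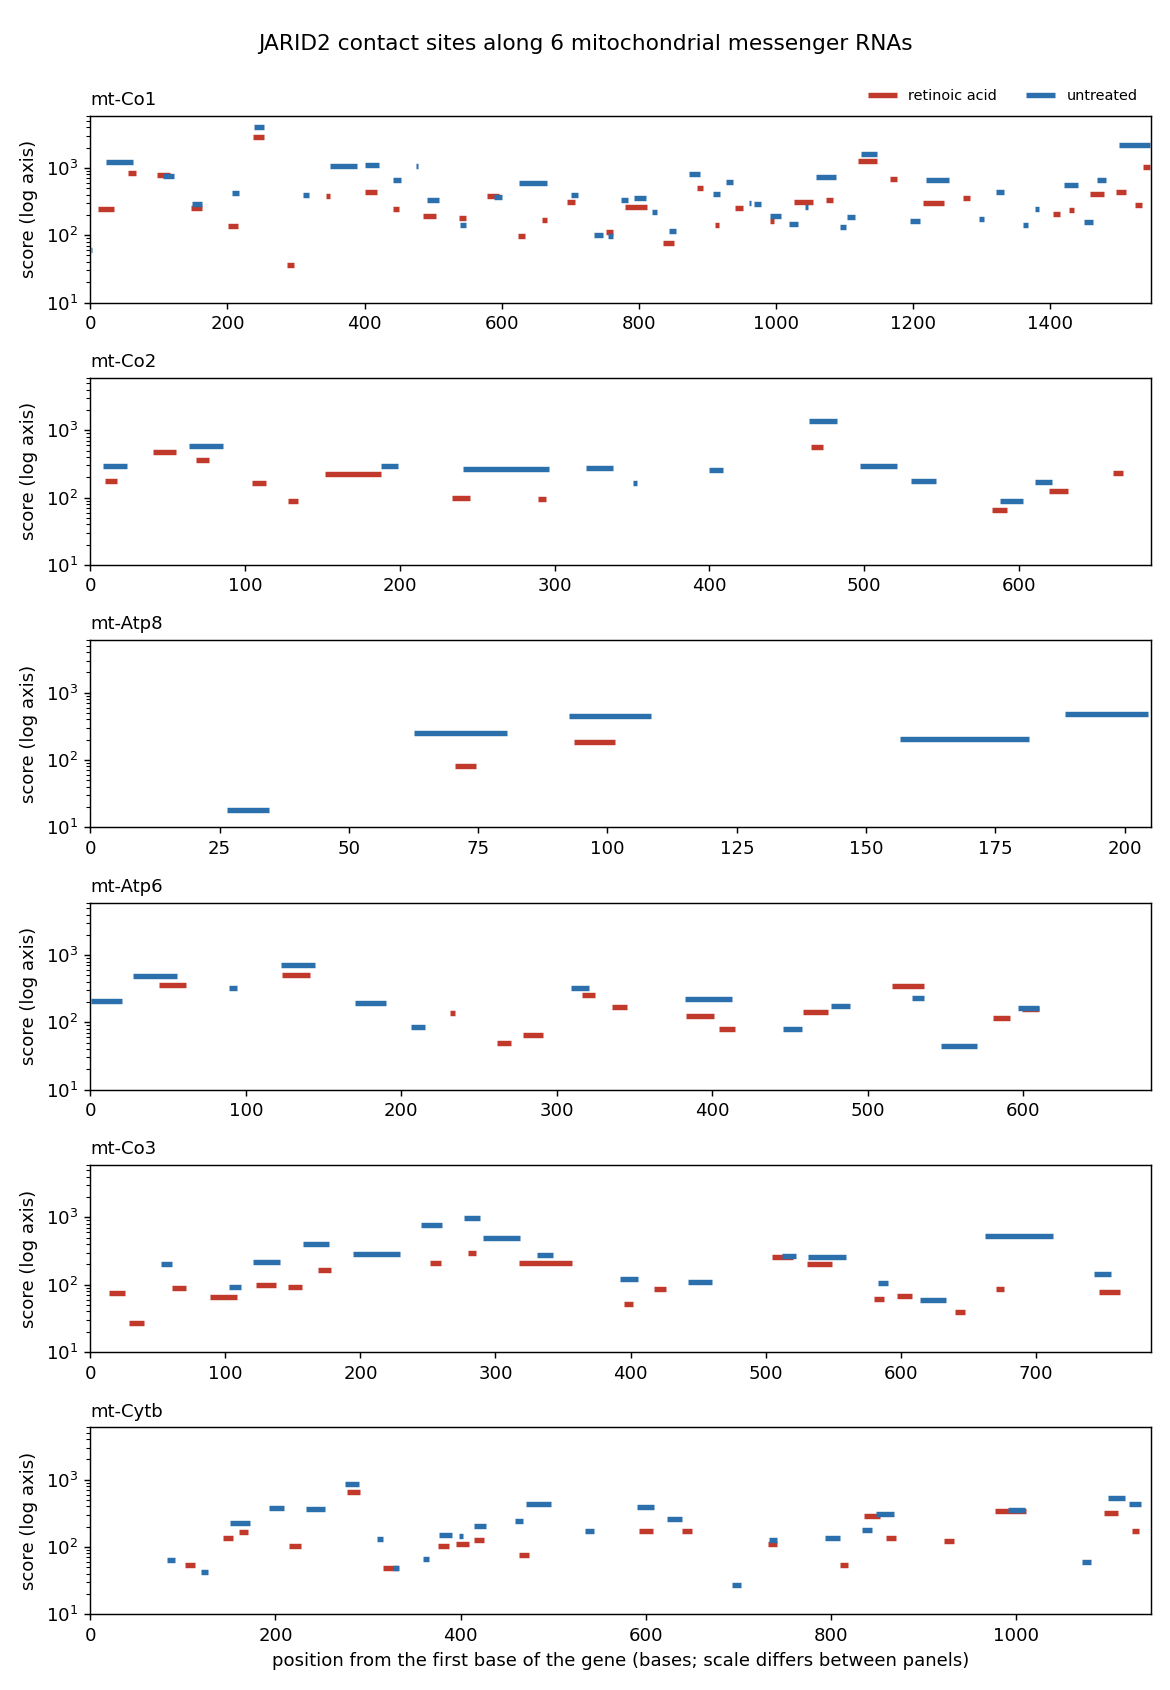
Each bar is 1 contact site, drawn from its first to its last base (x axis, bases from the start of the gene) at its score (y axis, log scale), red for the retinoic acid list and blue for the untreated list. The 5 longer genes have sites of both lists in each of 3 equal parts, mt-Atp8 has sites after retinoic acid in its middle part alone, and the highest site, in mt-Co1 near base 240, scored 2842 after retinoic acid and 4113 untreated.

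mt-Co2, which carries the copper site that takes electrons from cytochrome c, spans 7013 to 7696 (ENSMUSG00000064354.1) and held 12 sites in each list. The scores ran from 66 to 562 with a median of 170 after retinoic acid, and from 89 to 1377 with a median of 271.5 untreated. The highest site of both lists was at the printed locus, 562 at 7478 to 7485 after retinoic acid and 1377 at 7477 to 7494 untreated. Although the numbers of sites were equal, few bases were the same, since 41 bases were covered in both lists, 29.9% of the 137 covered after retinoic acid and 18.9% of the 217 covered untreated. From 7307 to 7477, 171 bases in a row had no site after retinoic acid. The untreated list had 3 sites wholly in that stretch, of 276, 167 and 256. Its sites of 267 and 1377 also reached into either end of it.

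mt-Co3, a core subunit that does not itself carry a metal centre, spans 8607 to 9390 (ENSMUSG00000064358.1). It was the only member with more sites after retinoic acid, 19 against 17 untreated. Its scores were nevertheless lower, with a median of 87 (27 to 300) after retinoic acid and 259 (59 to 977) untreated. The ratio of the medians, 0.336, was the lowest of the 6 genes. Only 7 of its 19 sites after retinoic acid scored at least 100, against 15 of 17 untreated. The highest site was 300 at 8886 to 8891 after retinoic acid and 977 at 8883 to 8894 untreated.

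The ATPase genes overlap each other by 43 bases, from 7927 to 7969, and are read from the same messenger RNA. mt-Atp8, 7766 to 7969 (ENSMUSG00000064356.3), held 2 sites after retinoic acid, 82 at 7836 to 7839 and 183 at 7859 to 7866. Its 5 untreated sites scored 18 at 7792 to 7799, 253 at 7828 to 7845, 450 at 7858 to 7873, 204 at 7922 to 7946 and 481 at 7954 to 7981. Both sites after retinoic acid lay inside an untreated site with a higher score. The overlap with mt-Atp6 was touched by 2 untreated sites, those of 204 and 481, and by 0 sites after retinoic acid.

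mt-Atp6, the subunit that forms part of the proton channel, spans 7927 to 8607 (ENSMUSG00000064357.1) and held 13 sites in each list, including the 2 untreated sites over the overlap. Scores ran from 49 to 508 with a median of 142 after retinoic acid, and from 45 to 719 with a median of 204 untreated. The highest was at the printed locus in both lists, 508 at 8050 to 8067 and 719 at 8049 to 8070. Of the 6 genes it had the smallest drop in summed score, 2502 after retinoic acid and 3236 untreated, a ratio of 0.773. The last 71 bases of mt-Atp6, up to the base it shares with mt-Co3, held no site in either list.

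mt-Cytb, the only complex III subunit made from mitochondrial DNA, spans 14145 to 15288 (ENSMUSG00000064370.1) and held 20 sites after retinoic acid and 26 untreated. Scores were 49 to 651 with a median of 132 after retinoic acid, and 27 to 854 with a median of 193 untreated. The highest site was 651 at 14422 to 14435 after retinoic acid and 854 at 14420 to 14434 untreated. The first 82 bases of the gene held no site in either list. Near the 3′ end, sites of 323 at 15239 to 15253 and 174 at 15269 to 15276 after retinoic acid overlapped untreated sites of 526 and 431.

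Sites on the 6 genes came back in the other list in a larger share than sites of the whole list. After retinoic acid 73 of 101 (72.3%, exact binomial interval 62.5 to 80.7) overlapped an untreated site by at least 1 base, against 27.3% of the whole retinoic acid list. Of the untreated sites, 71 of 115 (61.7%, 52.2 to 70.6) overlapped a site after retinoic acid, against 6.28% of the whole untreated list. The sites on the 6 genes also scored higher than most, since 73.3% after retinoic acid and 87.0% untreated scored at least 100, against 18.0% and 7.17% of nuclear sites. Among nuclear sites scored at least 100, 71.1% (68.1 to 74.1) recurred after retinoic acid and 41.1% (38.7 to 43.5) untreated. The members' sites scored at least 100 recurred in 79.7% (68.8 to 88.2) and 67.0% (56.9 to 76.1) of cases. Score moved with recurrence in this split, in which the other list was left uncut. With both lists held to a score of at least 100, the members' recurrence was 78.4% after retinoic acid and 58.0% untreated. The untreated value was then below the 61.7% without a minimum. The part of score in the members' recurrence was not tested beyond this. Sites were also dense on the 6 genes, covering 26.2% of their bases after retinoic acid and 36.1% untreated, which makes an overlap of 1 base easier to meet. The compared sets were not matched for density, and its part was not tested. The lists also differ in length, with 5348 sites after retinoic acid and 23380 untreated, against 101 and 115 on the 6 genes. The shorter list limits how many sites of the whole untreated list can recur, a limit that the members hardly share. The part of list length was not tested either.

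By gene, recurrence after retinoic acid ran from 53.8% in mt-Atp6 (7 of 13) to 82.9% in mt-Co1 (29 of 35), with mt-Atp8 at 2 of 2. In the untreated list it ran from 46.2% in mt-Atp6 (6 of 13) to 76.5% in mt-Co3 (13 of 17). Neighbours in these orders had overlapping intervals. Other mitochondrial sites recurred in 68.4% of cases after retinoic acid (119 of 174, 60.9 to 75.2) and 41.3% untreated (116 of 281, 35.5 to 47.3). The untreated interval of the 6 genes lay above that of the other mitochondrial sites, and the intervals after retinoic acid overlapped. These other sites include the minus strand and stretches between genes. Among sites sense to genes, recurrence after retinoic acid and untreated was 71.1% (60.1 to 80.5) and 46.4% (37.4 to 55.5) in the 7 complex I genes, and 66.7% (51.0 to 80.0) and 68.3% (51.9 to 81.9) in the 2 ribosomal RNA genes. All these intervals overlapped those of the 6 genes in the same list. No test of these differences was made, because sites of 1 transcript are not independent.

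**Figure D3:**
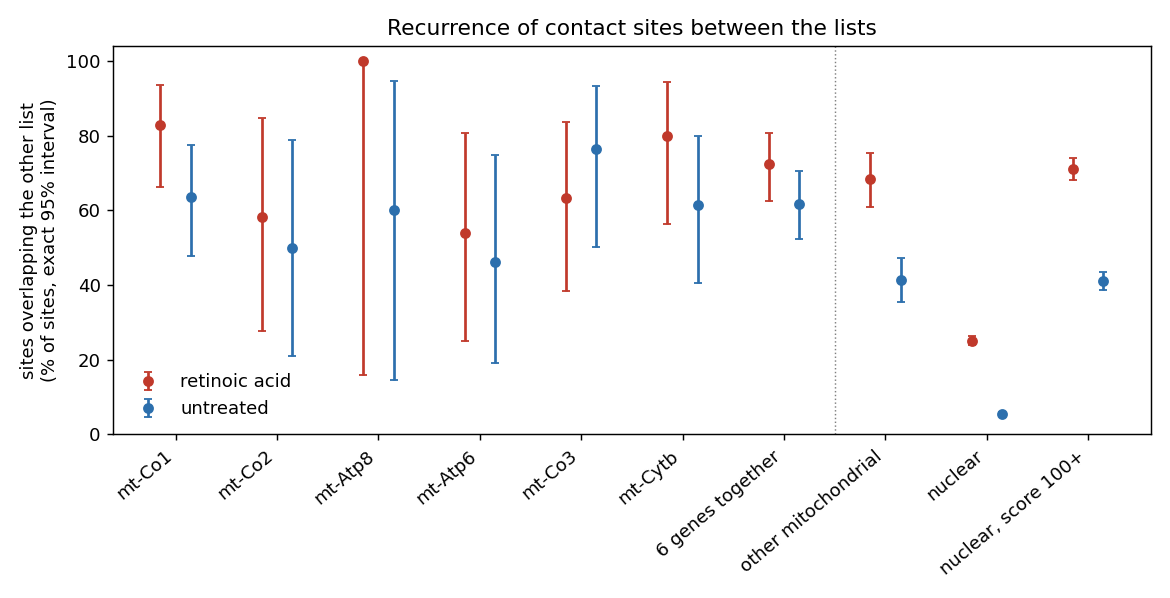
Percent of sites that met at least 1 base of the other list's sites, for the retinoic acid list (red, left of each pair) and the untreated list (blue), with exact 95% binomial intervals. The 6 genes together stood at 72.3% after retinoic acid and 61.7% untreated, and nuclear sites at 25.0% and 5.57%. The whole lists differ in length, 5348 sites after retinoic acid and 23380 untreated, which limits the untreated nuclear value.

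Recurring sites were near each other and not copies of each other. None of the 101 sites after retinoic acid had the same start and end as an untreated site. In 53 loci each list had exactly 1 site. The site after retinoic acid lay inside the untreated site in 21 of them, held the untreated site in 8, reached further upstream in 16 and further downstream in 8. The midpoint after retinoic acid minus the untreated midpoint had a median of -1 base (-14 to 13). Sites had a median length of 11 bases after retinoic acid and 13 untreated. In mt-Co1, 8 of 19 such sites reached further upstream after retinoic acid and 1 further downstream, a difference that was not tested.

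Recurrence was lower when counted over bases. Sites covered 1311 of the 4998 bases of the 6 genes after retinoic acid (26.2%) and 1804 untreated (36.1%). Of these, 707 were covered in both lists, which is 53.9% of the bases covered after retinoic acid and 39.2% of those covered untreated. In mt-Co1, 322 bases were covered in both, 64.8% of the 497 covered after retinoic acid and 48.4% of the 665 covered untreated. mt-Co2 had the smallest such part of the 5 longer genes, 29.9% and 18.9%.

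Scores were lower after retinoic acid at most places that both lists held. The 6 genes had 137 loci in which sites of either list overlapped, 65 with sites of both lists, 28 with sites after retinoic acid alone and 44 with untreated sites alone. The summed score after retinoic acid was lower than the untreated one at 58 of the 65 shared loci and higher at 7. The log2 ratio of retinoic acid over untreated had a median of -0.57 and ran from -3.14, in mt-Cytb at 14603 to 14641, to 0.59, in mt-Atp6 at 8442 to 8462. The same median was -0.61 over 54 shared plus-strand loci of the complex I genes, which leaves out mt-Nd6 on the minus strand. It was -0.54 over 27 shared loci of the 2 ribosomal RNA genes and -0.31 over 1239 shared nuclear loci. The members' median was thus close to the medians of other mitochondrial RNAs. Of the same loci, 39 of 54 were lower after retinoic acid in the complex I genes and 24 of 27 in the ribosomal RNA genes. Among nuclear loci 741 of 1239 were lower and 485 higher. These differences in counts were not tested. Read depth is unknown, and the sources used here do not say whether scores were scaled to it, so a lower score does not show less contact.

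By gene, the median log2 ratio at shared loci was -0.23 in mt-Atp6, -0.46 in mt-Cytb, -0.57 in mt-Co1 and mt-Co2, -1.18 in mt-Co3 and -1.30 in mt-Atp8. The mt-Atp8 value rests on 3 loci, all lower after retinoic acid, and in 1 of them the site after retinoic acid lies past the end of mt-Atp8, in mt-Atp6. All 12 shared loci of mt-Co3 were lower after retinoic acid, as were all 6 of mt-Co2. In mt-Co1 21 of 25 were lower, in mt-Cytb 12 of 14 and in mt-Atp6 5 of 6. Across the 65 loci the scores of both lists went together, with a Pearson r of 0.83 on the log2 scale and a Spearman rho of 0.78. This is a description across loci that share transcripts, libraries and depth. Shared loci carried 82.4% of the members' summed score after retinoic acid and 77.2% untreated.

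**Figure D4:**
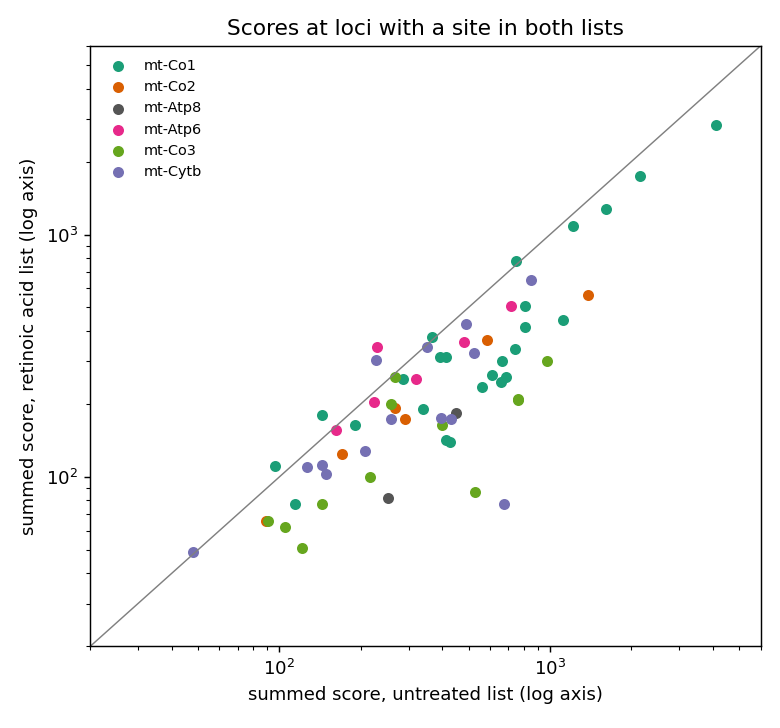
Summed score after retinoic acid (y axis) against summed untreated score (x axis), both log axes, at the 65 loci of the 6 genes with sites in both lists. The grey line marks equal scores, and a locus over mt-Atp8 and mt-Atp6 is drawn as mt-Atp6. Of the 65 loci, 58 lie below the line, and the highest points belong to mt-Co1. Of 1239 shared nuclear loci, not drawn, 741 were lower after retinoic acid.

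Sites were spread along the genes. With each gene cut into 3 equal parts, the parts from 5′ to 3′ held 34, 34 and 33 sites after retinoic acid and 37, 42 and 38 untreated, where a site over 2 genes counts in both. The summed score was less even, with 10843, 5654 and 9600 after retinoic acid and 18835, 12191 and 14798 untreated. The lower middle came mainly from mt-Co1, whose parts summed to 6400, 2643 and 5881 after retinoic acid and 11506, 5497 and 8307 untreated. In mt-Co1 the median distance from the start of a site to the next was 44.5 bases after retinoic acid and 32 untreated, and the longest stretch without a site was 122 bases and 56 bases.

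The stretches between the genes were short and held 0 to 2 sites each. The 69 bases between mt-Co2 and mt-Atp8, which hold the transfer RNA gene mt-Tk, had 0 sites after retinoic acid and 2 untreated, scored 38 and 108. The 68 bases between mt-Co3 and mt-Nd3, which hold mt-Tg, had 2 after retinoic acid, scored 398 and 954, with the second running on into mt-Nd3, and 0 untreated. After mt-Cytb, in mt-Tt, 1 site of each list lay across the far end, scored 326 after retinoic acid and 462 untreated.

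Each site's name has a prefix that it shares with its neighbours, and the sources used here do not say what it stands for. No prefix covered more than 1 strand or chromosome, and the median prefix held 1 site in each list. All 35 sites of mt-Co1 after retinoic acid had a single prefix, and so did the 44 untreated sites, with 1 more past the end of the gene. By number of sites, these prefixes ranked 3 in their lists. After retinoic acid a single prefix with 27 sites ran from 7836 to 9032 over mt-Atp8, mt-Atp6 and mt-Co3. The untreated list had a break there, with 15 sites from 7792 to 8496, 1 site at 8523 to 8536 and 17 sites from 8659 to 9361. mt-Cytb was split into 3 prefixes after retinoic acid and 2 untreated.

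Every site on the 6 genes held at least 1 T on the RNA strand, 101 of 101 after retinoic acid and 115 of 115 untreated. Over all windows of the same lengths in the same genes, 95.9% held a T for either list. T made up 32.6% of the bases covered after retinoic acid, 30.1% of those covered untreated, 32.7% of those covered in both lists and 28.9% of those covered in neither. G made up 12.3%, 11.0%, 9.90% and 14.4% of the same bases. Over the whole of the 6 genes T was 29.8% and G 13.2%.

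The 7 complex I genes on the mitochondrial chromosome, encoding subunits of NADH dehydrogenase, give the nearest comparison. Together they had 13.1 sites per kb after retinoic acid (10.4 to 16.2) and 19.7 untreated (16.4 to 23.5), against 20.2 and 23.0 for the 6 genes. The interval of the 6 genes lay above theirs after retinoic acid, by 16.5 against 16.2 at the nearest bounds, and overlapped it untreated. Their summed score per kb was 1604 after retinoic acid and 2865 untreated, against 5221 and 9031 for the 6 genes. mt-Co1 alone had 9660 and 16382. The other members ran from 1299 (mt-Atp8) to 3895 (mt-Co2) after retinoic acid, and from 4752 (mt-Atp6) to 6892 (mt-Atp8) untreated. Single complex I genes ran from 878 to 3296 after retinoic acid and from 1460 to 5047 untreated. Each member's nearest complex I gene, by Euclidean distance in log2 sites per kb over the 2 lists, was mt-Nd4l for mt-Co1 and mt-Co3 (0.32 and 0.29), mt-Nd4 for mt-Co2 and mt-Atp6 (0.13 and 0.19), mt-Nd5 for mt-Atp8 (0.28) and mt-Nd1 for mt-Cytb (0.14). Of the ribosomal RNA genes, mt-Rnr1 had 23.0 sites per kb after retinoic acid and 22.0 untreated, and mt-Rnr2 had 14.5 and 12.6, the untreated value below that of each member. Their scores were higher than the members', with medians over both genes of 928 after retinoic acid and 1908 untreated.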

How the data were processed

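Per the labels, each group's 3 libraries were pooled in 1 deposited list of contact sites. The authors' score per site was used as deposited. Per the submitters' processing notes, Bowtie and mm9 were used. The sources used here do not give the site caller, filters or depth, nor how reads that match nuclear copies of mitochondrial DNA were placed. Such reads could change the members' counts. The members, lists and tests were chosen with earlier results of these data known. All 6 members are named, with their highest-scored sites and shared loci.

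Gene positions and sequences came from GENCODE M21 (GRCm38), taking the mitochondrial numbering of both builds as the same. The T in each site is only a weak check of this, since 95.9% of windows of the same lengths hold a T. Sites were assigned and counted as shared at an overlap of at least 1 base on the same strand. Overlapping sites of both lists formed loci. Intervals are exact 95% intervals, and tests are two-sided Fisher exact tests with Benjamini-Hochberg adjustment, for genes with at least 10 sites. The scripts were tested on simulated data. The tools were numpy 2.4.6, scipy 1.17.1 and matplotlib 3.10.9 under Python 3.11.15. Alternatives were other score minimums, overlap rules, denominators and joining of near sites.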

Additional observations from a re-analysis of the deposited data

Results flagged for a closer look

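The strand opposite to the 6 genes is not part of the counts above. Of the sites on the minus strand of the mitochondrial chromosome, 2 of 40 after retinoic acid and 18 of 110 untreated lay antisense to the 6 genes. The untreated count is named here because it exceeds the 3 that a count of 0 allows, a low bar that does not set these genes apart from the rest of the strand. The untreated sites scored 9 to 76 with a median of 23.5, and those after retinoic acid scored 23 in mt-Cytb and 27 in mt-Co3. By gene, mt-Cytb had 1 antisense site after retinoic acid and 9 untreated, mt-Co2 had 0 and 4, mt-Atp6 had 0 and 3, mt-Co3 had 1 and 1, mt-Co1 had 0 and 1, and mt-Atp8 had 0 in both lists. None of these sites overlapped an antisense site of the other list. For comparison, the sense sites on the 6 genes had median scores of 167 after retinoic acid and 267 untreated. The part of list length in these counts was not tested.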

How the results depend on the processing

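No paired analysis was possible because each list pools its libraries, and leaving out a library was not possible for the same reason. Of 72 site counts per gene and alternative, 58 stayed within 1.5 times the reported count. The 14 others were lower, 12 of them with sites up to 50 bases apart joined. That joining left 20 sites on the 6 genes after retinoic acid and 15 untreated. Some of the 58 counts could not move. The score minimum of 10, with 12 counts, removed no member site, since the lowest scores were 27 after retinoic acid and 18 untreated. Limiting the untreated list to its highest-scored sites leaves the counts after retinoic acid as they are. Recurrence after retinoic acid and untreated was 34.7% and 30.4% with a reciprocal overlap of at least 50%, 0% and 0% with identical ends, and 86.1% and 79.1% within 10 bases. The members' share of mitochondrial sites after retinoic acid and untreated was 43.0% and 40.2% on the plus strand, 24.0% and 17.9% without mt-Co1, and 42.3% and 41.3% with a score of at least 100. Against the whole list, 11 genes passed the Fisher exact test in place of 0. Log2 odds ratios turned round, none past the threshold, for mt-Co1 (-0.055) and mt-Cytb (-0.10) on the plus strand. They did so for mt-Co3 with a score of at least 100 (-0.66), and for mt-Co1 (-0.33) and mt-Cytb (-0.32) against the whole list with the untreated list limited to its highest-scored sites. That limit and leaving out mt-Co1 were added with the data already seen. The causes were not tested. Depth is unknown, and mt-Atp8, with 2 and 5 sites, is too short for firm counts.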
